A study of Mus musculus with 4 samples.

Results

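The genes described here are 10 heat shock chaperone genes, chosen by symbol from the 31054 features counted in single-cell libraries of aged mouse lung: Hspa1a, Hspa1b, Hspa8, Dnajb1, Dnaja1, Hsph1, Hsp90aa1, Hspd1, Hspe1 and Hspb1. All 10 were found in every matrix and all 10 passed the filter on low counts over the whole library. Male C57BL/6 mice, 19 months old, received BPTES, an inhibitor of the glutaminase GLS1, or its vehicle DMSO for 1 month, with 2 libraries in each group. Lung tissue was minced, digested with Liberase at 37 °C for 1 hour and stained for CD45. Then 20000 CD45- and 9000 CD45+ sorted cells of the same tissue were mixed into 1 library. Both groups went through the same digestion and sort. No library of undigested tissue was analysed here, so levels set in the animal and levels set during digestion cannot be told apart.

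Chaperones help other proteins fold and keep damaged ones from clumping. When unfolded proteins accumulate, heat shock factor 1 (HSF1) binds short repeats of GAA and TTC, called heat shock elements, in front of these genes and their transcription rises. Cells of dissociated tissue often show this response together with the immediate early genes, such as Fos and Jun, that answer many kinds of stimulation.

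Hspa1a and Hspa1b encode the inducible cytosolic Hsp70 and Hspa8 its constitutive relative. They lie at chr17:34969190-34972156 and chr17:34956436-34959238, both on the minus strand, and at chr9:40800984-40810087 (all positions are from mm10, with GENCODE M21 genes). Promoters are shown because the members had the same order of libraries. They come from RefSeq on GRCm38.p6, the build that mm10 is made from, and 8 of the 10 genes had an entry. A pair of facing units, GAANNTTC or TTCNNGAA, was searched on both strands in the 200 bases before each start. The 8 genes have 13 listed starts, and the pair was in the windows of 8 of these 13 (at least 1 window of 7 genes), against 10.4% of 32817 promoter windows. A run of 3 such units with the same spacing, which always holds the shorter motif, was in 2 of the 13 windows, 1 each of Hspd1 and Hspe1, and in 0.372% of all windows. The windows with a match are not separate from each other. Those of Hsph1 hold the same site, those of Hspd1 and Hspe1 the same stretch, and those of Hspa1a and Hspa1b are near copies. The counts thus repeat sites, which limits their comparison with the shares of all windows. A match describes the letters and is no evidence of binding. The 200 bases before the start of Hspa1a (chr17:34972157-34972356, minus strand) are printed 5′ to 3′ with the match in capitals, and the same window of Hspa1b has the same base at 199 of 200 positions.
Hspa1a: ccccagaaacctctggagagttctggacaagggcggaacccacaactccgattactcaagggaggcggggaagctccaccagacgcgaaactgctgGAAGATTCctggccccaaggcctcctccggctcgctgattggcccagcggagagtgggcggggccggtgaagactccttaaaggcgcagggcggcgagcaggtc

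Hspb1 encodes a small heat shock protein, and its window (chr5:135887719-135887918, plus strand) held 2 matches. Dnaja1 and Dnajb1 encode J-domain co-chaperones that pass clients to Hsp70, and Hsph1 encodes an Hsp110 that exchanges its nucleotide. Hspd1 and Hspe1 encode the mitochondrial chaperonin and its lid. They stand head to head on chromosome 1, so that their windows share 1 stretch, read here on the Hspe1 strand (chr1:55088057-55088078). Short stretches are given for Hspe1, Hsph1 (chr5:149636360-149636371, minus strand) and Dnaja1 (chr4:40722342-40722353, plus strand). They lie before RefSeq starts. On the GENCODE M21 coordinates the Hsph1 and Dnaja1 sites lie inside their own genes, and the shared stretch lies inside Hspd1. Neither listed start of Dnajb1 had a match.
Hspb1: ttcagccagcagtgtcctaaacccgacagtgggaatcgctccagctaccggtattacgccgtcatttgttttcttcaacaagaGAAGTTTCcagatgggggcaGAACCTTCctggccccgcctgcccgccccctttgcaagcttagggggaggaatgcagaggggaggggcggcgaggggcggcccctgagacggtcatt
Hspe1: cgTTCTAGAACCTTCCGGAAgg
Hsph1: ctTTCTCGAAgg
Dnaja1: taGAAAATTCta

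After filtering, 63895 cells remained, between 14407 and 18860 per library, with median depths of 14764.5 and 15865.5 UMIs (unique molecular identifiers, 1 per captured transcript molecule) in BPTES replicates 1 and 2 and 14256 and 14032.5 in DMSO replicates 1 and 2. Median shares of mitochondrial UMIs were 1.43% and 1.5002% with BPTES and 1.373% and 1.370% with DMSO. Both measures were highest in BPTES replicate 2 and next in BPTES replicate 1, the order the chaperones had, and their part in the chaperone levels was not tested. Cells of Ptprc-positive clusters, Ptprc being the gene of CD45, made up 28.0% to 30.3%. Xist was at most 0.132 CPM and the Y-linked Ddx3y at least 156 CPM in the 4 libraries. Barcode sequences were shared by 2 libraries in 573 cases and by 3 in 2 cases, of all distinct barcodes 0.780% and 0.00272%. The labels do not say whether a library is 1 mouse or a pool, nor that the 2 libraries of a group came from separate mice. The p-values thus measure the spread between these libraries.

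Over all kept cells, all 10 chaperone genes were higher in both BPTES libraries than in either DMSO library, and BPTES replicate 2 was the highest of the 4 for all 10. Of 21459 genes tested, 26.7% had BPTES groups that lay above DMSO without overlap and 27.4% had their highest level in that library. The full order, BPTES replicate 2, BPTES replicate 1, then both controls, held for all 10 members and 16.9% of genes. These shares of genes were counted after TMM scaling, and the members on plain CPM. Levels are given as CPM, UMIs scaled to the library's total. Those of Hspa1a were 38.9 and 71.5 in BPTES replicates 1 and 2, and 34.2 and 36.9 in DMSO replicates 1 and 2. BPTES replicate 1 lay just above the controls and replicate 2 far above them. Hspa1b was at 17.4 and 45.2 CPM against 15.5 and 13.6 CPM. Its transcripts share 31-base words with Hspa1a over 67.5% of their length, but none in the last 500 bases, the end that the 3′ chemistry reads, so that reads from that stretch can be told apart.

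Hsph1 stood at 39.0 and 86.9 CPM with BPTES and at 19.0 and 28.1 CPM with DMSO. This was the widest separation of the 10 genes, with a log2 fold change of 1.48 (standard error 0.44). Dnaja1 was at 325 and 471 CPM against 264 and 261 CPM, a log2 fold change of 0.66 (SE 0.19), and its controls were nearly equal. Dnajb1 was at 74.9 and 83.6 CPM against 72.2 and 68.2 CPM, the smallest log2 fold change of the 10, 0.23 (SE 0.08). The constitutive Hspa8 was at 684 and 901 CPM against 541 and 576 CPM. Hsp90aa1, the inducible cytosolic Hsp90, was at 413 and 554 CPM against 370 and 405 CPM. In both, BPTES replicate 1 lay between the controls and BPTES replicate 2.

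The mitochondrial pair was at 87.0 and 114.8 CPM (Hspd1) and 94.9 and 120.6 CPM (Hspe1) with BPTES. With DMSO it was at 70.3 and 76.0 CPM and at 83.1 and 91.0 CPM. Hspb1 was at 277 and 359 CPM against 231 and 272 CPM, so that BPTES replicate 1 and DMSO replicate 2 almost met. In BPTES replicate 1 the 10 genes stood between 1.07 and 1.65 times their DMSO mean, and in replicate 2 between 1.19 and 3.69 times.

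**Figure D1:**
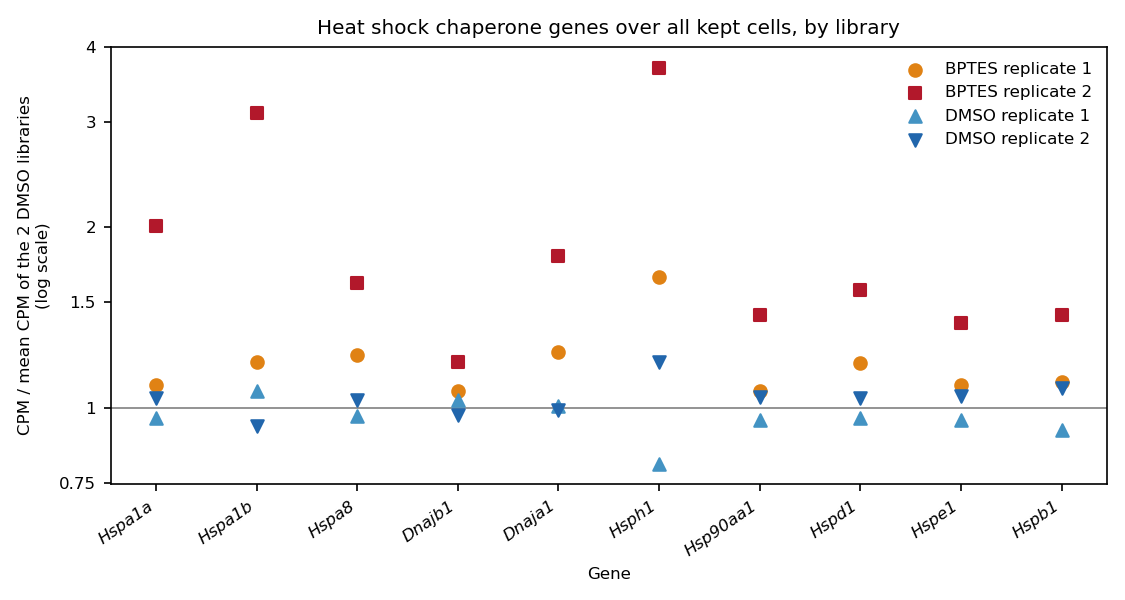
Level of each gene in each library over all kept cells, divided by the mean CPM of the 2 DMSO libraries (log scale, 1 point per library). The points of BPTES replicate 2 lie highest for all 10 genes, up to 3.69 times the DMSO mean for Hsph1, and those of BPTES replicate 1 lie next.

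No member passed the test over the whole library (edgeR quasi-likelihood test, Benjamini-Hochberg adjustment over 21459 genes): adjusted p-values ran from 0.233 (Hspa8) to 0.320 (Hspa1a). None of the 21459 genes passed it, so the background was 0%. At an unadjusted p under 0.05, 6 of 10 members were higher, against 8.78% of all genes. DESeq2 called 3 members higher, Hspa8 (adjusted p = 0.0123), Dnaja1 (adjusted p = 0.0126) and Hspd1 (adjusted p = 0.0299), and 5.89% of all genes in either direction. The median log2 fold change of the 10 members was 0.54, beside -0.01 over all genes tested, and all 10 were above 0, beside 47.7% of genes. Without BPTES replicate 2 the log2 fold change was still above 0 for all 10 and moved to 0.17 for Hspa1a, 0.29 for Hspa1b, 0.76 for Hsph1, 0.35 for Dnaja1 and 0.33 for Hspa8. The other 5 members then lay between 0.13 (Hsp90aa1, 0.38 with all libraries) and 0.29 (Hspd1, 0.52 with all libraries). Without BPTES replicate 1 it was 1.08 for Hspa1a and 1.95 for Hsph1.

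Cells were clustered with the 10 genes and the other gene lists left out of the clustering, and clusters were named from marker genes. Of 43 clusters, 9 stayed unnamed, with 26.1% of cells, and 21 named classes had at least 50 cells in every library. The mix of classes differed between groups. B-like cells numbered 710 and 623 with BPTES and 1397 and 1618 with DMSO, and AT2-like cells 384 and 391 against 118 and 234. The part of this mix in the levels over all kept cells was not tested. Where each gene was highest differed from member to member. Hspa1a averaged 351 ± 346 CPM in smooth muscle-like cells (SD, n = 4 libraries), followed by pericyte-like cells with 129.8 ± 61.3, adventitial fibroblast-like cells with 95.9 ± 20.5 and peribronchial fibroblast and myofibroblast-like cells with 95.5 ± 18.9 (n = 4 each). Without BPTES replicate 2 the smooth muscle-like mean was 178.1 ± 31.002 CPM (SD, n = 3), still the highest. Hspa1a was lowest in T-like cells, with 2.01 ± 1.12 CPM (n = 4). Mesenchymal classes thus stood above lymphocytes, NK-like cells having 2.26 and B-like cells 2.48 CPM. Each class in this order overlapped the next within the range of its libraries, in all 20 neighbouring pairs. Hspa1b had the same top and a similar order, with 292 CPM in smooth muscle-like and 2.14 CPM in B-like cells (115 and 1.05 without BPTES replicate 2). Over the 21 class means the copies had a Pearson r of 0.92 and a Spearman rho of 0.91, computed from sums that share their libraries and depths.

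Hspb1 was highest in 4 classes: aerocyte endothelial-like cells at 1066 ± 274 CPM, smooth muscle-like cells at 988 ± 1135, peribronchial fibroblast and myofibroblast-like cells at 954 ± 141 and alveolar fibroblast-like cells at 727 ± 168 (SD, n = 4). Aerocytes are the large capillary cells specialised for gas exchange. Without BPTES replicate 2, at 2682 CPM, smooth muscle-like cells averaged 423 ± 133 CPM (SD, n = 3) and ranked below alveolar fibroblast-like cells. The lowest alveolar fibroblast-like library, at 501 CPM, lay above the highest library of the next class, venous endothelial-like, at 335 CPM. The lowest smooth muscle-like library, at 285 CPM, did not. Hspb1 was at 7.24 CPM in T-like and 7.64 CPM in classical monocyte-like cells. Capillary classes differed, since general capillary endothelial-like cells had 151 CPM of Hspb1.

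Ciliated-like cells led for Hsp90aa1, Hsph1 and Hspd1. Their Hsp90aa1 averaged 3395 ± 630 CPM (SD, n = 4), between 2456 and 3772, and the next class, smooth muscle-like, averaged 693 CPM with no library above 1209. Hsph1 averaged 343 ± 136 CPM (SD, n = 4) there and 76.4 CPM in T-like cells, the next class, again without overlap. Without BPTES replicate 2 these means were 278.6 and 47.8 CPM. Hspd1, at 202 CPM, was also highest there but overlapped the next class. Dnajb1 was nearly level in ciliated-like (117.5 CPM) and adventitial fibroblast-like cells (116.9 CPM), and without BPTES replicate 2 lymphatic endothelial-like cells, at 116.8 CPM, were first and ciliated-like cells had 108.9. Hsp90 and its partners help assemble the dynein motors of cilia.

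Leukocyte classes led for Hspa8, Hspe1 and Dnaja1. Hspa8 averaged 1364 ± 179 CPM in classical monocyte-like cells (SD, n = 4), 1224 in dendritic-like and 1062 in lymphatic endothelial-like cells. Hspe1 averaged 254.4 ± 22.8 CPM in T-like cells (SD, n = 4) and 226 in dendritic-like cells. Neutrophil-like cells were lowest for 5 of the 10 genes, with 269 CPM of Hspa8, 131.8 of Hsp90aa1, 14.4 of Hspd1, 9.79 of Hspe1 and 1.62 of Hsph1, and highest for Dnaja1, with 524 CPM. Dnaja1 varied least among classes, 2.90-fold from neutrophil-like to pericyte-like cells, and Hsph1 most, 212-fold.

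**Figure D2:**
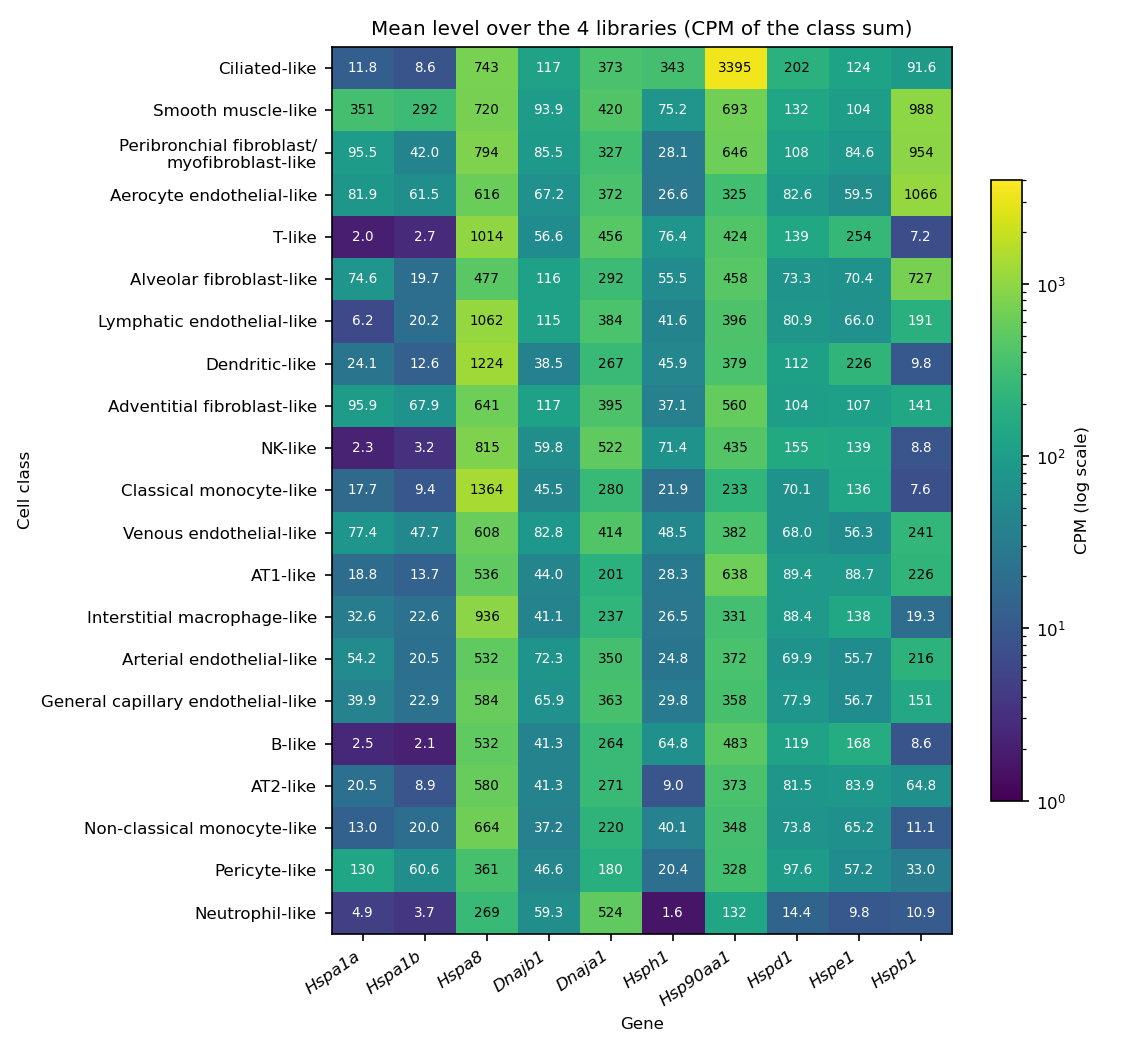
Mean CPM over the 4 libraries of each gene (columns) in each of the 21 cell classes (rows), coloured on a log scale and meant to be read down a column. Hspa1a and Hspa1b peak in smooth muscle-like cells, Hsp90aa1 and Hsph1 in ciliated-like cells and Hspb1 in aerocyte endothelial-like cells.

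Within cell classes the 10 genes were again mostly higher with BPTES. Of 210 pairs of gene and class, 207 passed the filter, the exceptions being Hspa1a and Hspa1b in NK-like and Hsph1 in neutrophil-like cells. The log2 fold change was above 0 in 194 of 207 pairs, 93.7%, beside 49.6% of all 253493 pairs of gene and class. BPTES lay above DMSO without overlap in 147 of 207 pairs and below it in 2, beside backgrounds of 21.5% and 21.7% (TMM-scaled CPM). The 2 lower pairs were Dnajb1 in peribronchial fibroblast and myofibroblast-like cells and Dnajb1 in neutrophil-like cells, the latter at 58.2 and 58.9 against 59.02 and 61.8 CPM. On plain CPM, BPTES replicate 2 was the highest library in 193 of 210 pairs. Beside this stand 26.9% of the 253493 pairs that passed the filter, counted on TMM-scaled CPM. At an unadjusted p under 0.05, 127 pairs were higher and none lower, beside a background of 5.58% higher. The test called 1 pair: Dnaja1 rose in lymphatic endothelial-like cells (log2 fold change 0.69, SE 0.12, edgeR adjusted p = 0.0318), from 289 and 302 CPM to 413 and 531 CPM. The background of calls was 0.109%. With doublets kept, its adjusted p was 0.220, and over the other alternatives it ran from 8.92e-09 (no filter on low counts) to 0.0461 (without BPTES replicate 2, which leaves that group 1 library).

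The number of called pairs depended on the libraries and on the fit. It was 105 without BPTES replicate 1, 13 without BPTES replicate 2, 11 without DMSO replicate 1 and 23 without DMSO replicate 2, and 44 with the replicate number as a block. All were higher except 1 of the 23, Hspb1 in non-classical monocyte-like cells (-1.15, edgeR adjusted p = 0.0341 without DMSO replicate 2). Where a library is left out, 1 group is a single library, assumed to vary like the other group, so the p-values of those fits are no separate support. These fits also called more of all pairs of gene and class (2.14%, 0.596%, 0.350%, 1.04% and 1.12%). The share of member pairs with a log2 fold change above 0 was 82.6% without BPTES replicate 2 and 96.7% without BPTES replicate 1.

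Per gene, on the plain CPM scale, BPTES lay above DMSO in 21 of 21 classes for Dnaja1, 20 for Hspa8 and 19 for Hsph1. It did so in 16 classes each for Hspd1 and Hspe1, in 14 each for Hspa1b and Hsp90aa1, in 11 for Hspa1a, in 10 for Dnajb1 and in 9 for Hspb1. The share over all pairs of gene and class, 21.5%, was counted on TMM-scaled CPM only. Hsph1 had a median log2 fold change over classes of 1.70 (0.90 without BPTES replicate 2 and 2.12 without BPTES replicate 1), with 2.28 (SE 0.41) in B-like cells, where its CPM were 56.5 and 158 against 18.2 and 26.3. In T-like cells it was at 72.4 and 162 CPM against 29.1 and 41.9. In venous endothelial-like cells it was at 50.2 and 95.3 CPM against 21.6 and 26.8. The groups were apart in all 3 classes, with BPTES replicate 2 well above replicate 1, and no adjusted p was under 0.05 (edgeR, 0.338, 0.162 and 0.108). Lymphocytes, in which Hspa1a and Hspa1b were nearly undetected, thus showed the same order of libraries for Hsph1 as the vascular cells.

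Hspa1b in interstitial macrophage-like cells was at 35.9 and 39.8 CPM against 3.98 and 10.8 CPM. Here the BPTES libraries were close to each other and both above the controls, with a log2 fold change of 2.26 (SE 0.32, edgeR adjusted p = 0.0502). That p was 0.0488 with at most 5% mitochondrial UMIs, 0.131 with the replicate number as a block and 0.123 without BPTES replicate 2, and it ran from 4.50e-24 (no filter on low counts) to 0.358 (another clustering seed) over all alternatives. The 5 markers of the class summed to 5345 and 5476 CPM with BPTES and to 6344 and 6636 CPM with DMSO, and the part of this in the result was not tested. In the same cells Hspb1 was at 11.1 and 57.3 CPM against 2.32 and 6.63 CPM. Classical monocyte-like cells had Hspa1a at 20.9 and 29.8 CPM against 8.45 and 11.7 CPM (edgeR adjusted p = 0.0786).

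In aerocyte endothelial-like cells the difference in Hspa1a and Hspa1b lay in 1 library. For the other 8 members both BPTES libraries were above both DMSO libraries (background in this class 19.9% of genes, counted after TMM scaling). Hspa1a was at 35.8 CPM in BPTES replicate 1 and 219.8 CPM in replicate 2, and at 42.3 and 29.8 CPM with DMSO. Replicate 1 was thus within the range of the controls and replicate 2 far above every other library. Hspa1b had the same pattern, 24.3 and 185 CPM against 25.3 and 11.2. The 6 markers of the class had nearly equal sums in the 4 libraries, 12012 to 12504 CPM. The fitted log2 fold change of Hspa1a was 1.85 (SE 0.60, edgeR adjusted p = 0.331).

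In smooth muscle-like cells Hspa1a was at 214 and 869 CPM against 156 and 165, and Hspb1 at 432 and 2682 CPM against 285 and 551. BPTES replicate 2 again stood far above the others. This class held between 55 and 144 cells per library. Its own 6 markers summed to 22220 CPM in BPTES replicate 2 and to between 9410 and 13944 CPM in the other libraries, so the marker sum was highest in the same library as the chaperones, and its part in the result was not tested.

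BPTES was not higher in every pair. In peribronchial fibroblast and myofibroblast-like cells Hspa1a was at 73.7 and 93.5 CPM against 119.7 and 94.9, below both controls on this scale and overlapping them (96.6 against 95.1 CPM) after TMM scaling. Dnajb1 was at 75.2 and 85.8 against 90.9 and 90.0 CPM there. In the same cells Hsph1 was at 31.3 and 56.3 against 11.8 and 13.2 CPM, above both controls. Hspa1a in lymphatic endothelial-like cells was at 1.57 and 11.0 CPM against 3.94 and 8.32, which overlapped, as Hspa1a did in 9 of the 21 classes on this scale. Differences between classes were not tested.

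**Figure D3:**
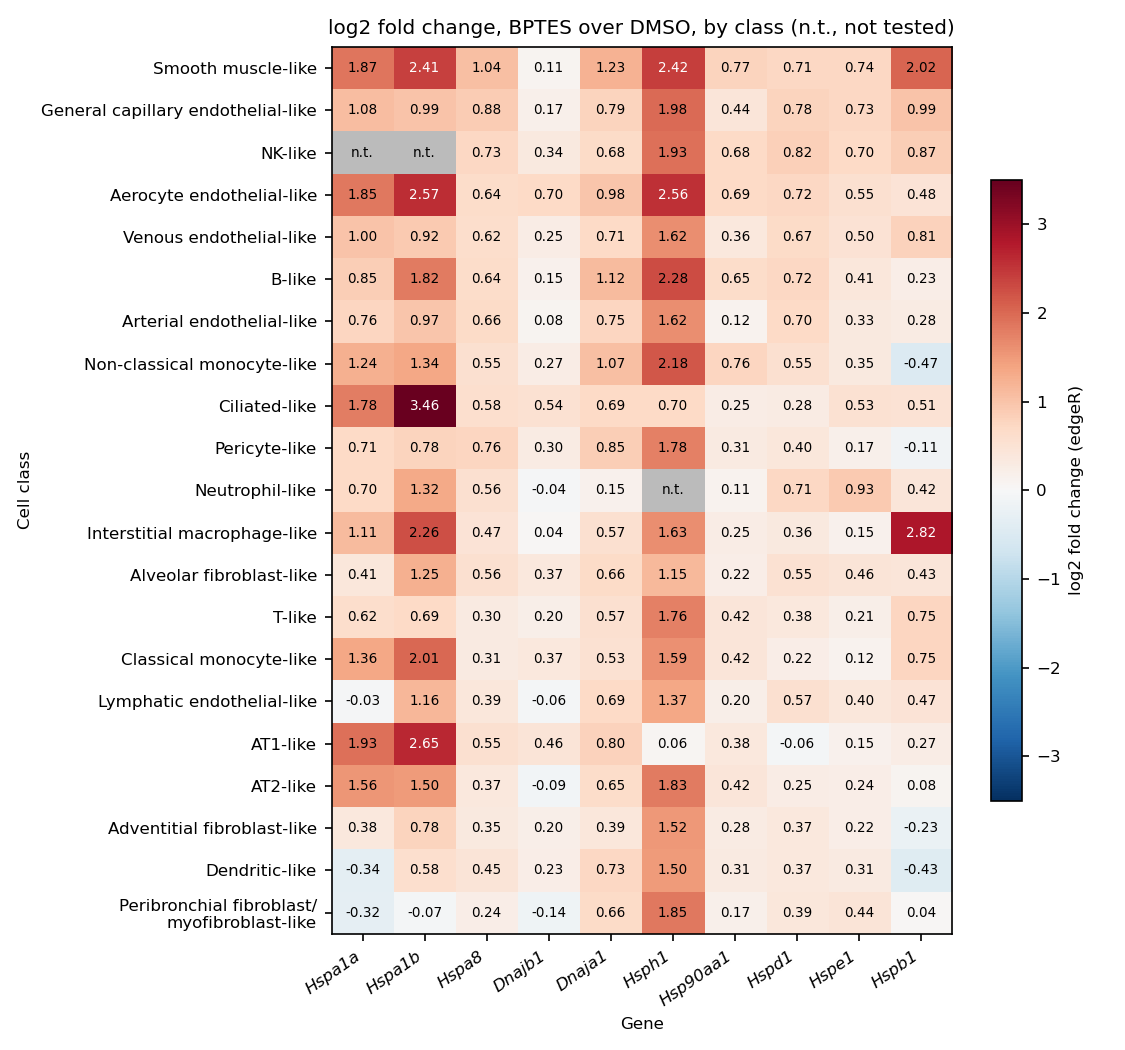
Log2 fold change of BPTES over DMSO (edgeR) for each gene (columns) and cell class (rows, ordered by the median over genes); n.t., not tested. The columns of Hspa8, Dnaja1, Hsph1, Hsp90aa1 and Hspe1 are above 0 in all classes tested, and the values below 0 lie in the columns of Hspa1a, Hspa1b, Dnajb1, Hspd1 and Hspb1.

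To compare how many cells held each transcript, each cell of the 21 classes was thinned to 3000 UMIs. An Hspa1a UMI was then found in 8.04% and 13.7% of cells with BPTES and in 6.46% and 6.68% with DMSO (23.5%, 38.8%, 18.5% and 19.2% before thinning). The difference of the group means was 4.29 percentage points. Thinning left out 228, 217, 390 and 470 shallower cells of the 4 libraries. B-like cells, a class with hardly any Hspa1a, had 0.902%, 1.07%, 0.248% and 0.213% at median depths of 12081.5, 11241, 11817 and 11628.5 UMIs in the same order, where all cells of the 21 classes had 16697, 18233, 15583 and 15631. An Hsph1 UMI was in 10.6% and 21.4% against 4.69% and 6.92% of cells, an Hspa8 UMI in 76.7% and 85.3% against 65.9% and 70.5%. In aerocyte endothelial-like cells the share with Hspa1a was 7.83% and 39.8% against 5.70% and 4.74%. Before thinning, the 10% of cells richest in Hspa1a held 36.1% of its UMIs in BPTES replicate 2, against 77.6% to 90.5% in the other 3 libraries. In BPTES replicate 2 the gene was thus detected in more cells of the class. Both measures also move with the level of the gene, which was highest in that library.

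**Figure D4:**
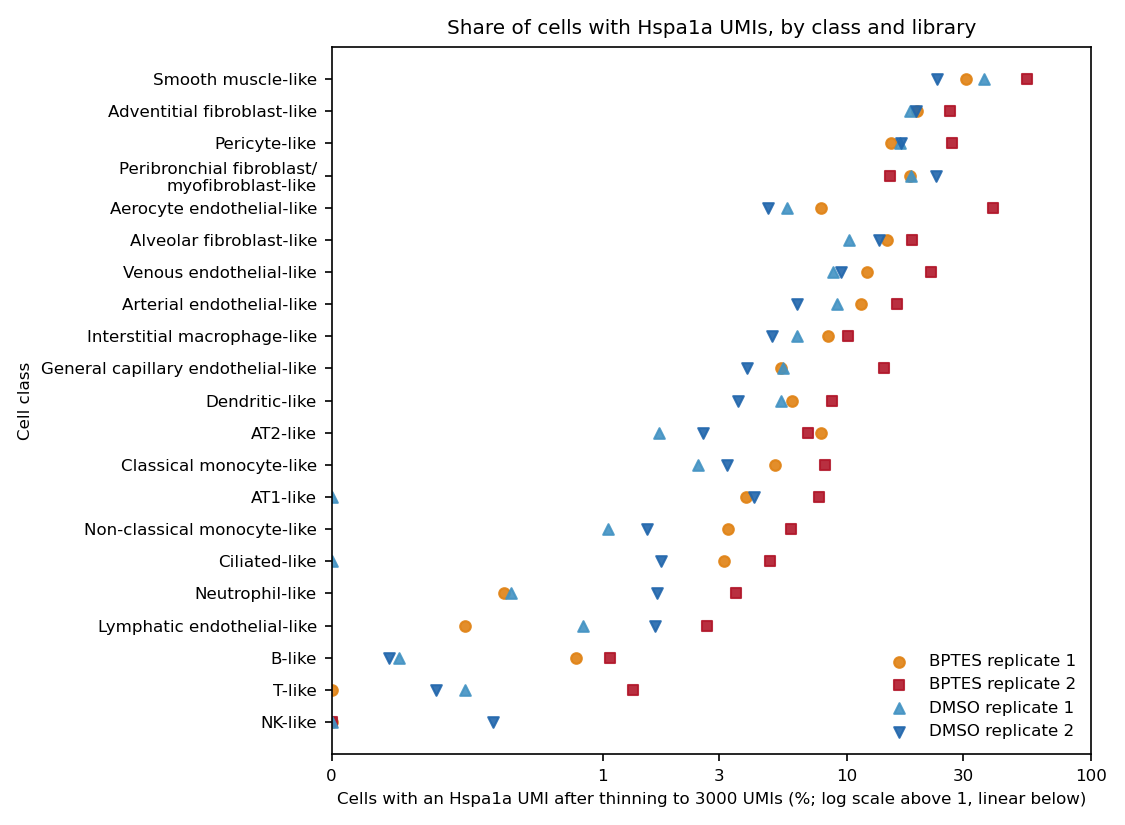
Percent of cells with an Hspa1a UMI after thinning each cell to 3000 UMIs, by cell class and library (1 point per library; axis on a log scale above 1 and linear below). Smooth muscle-like cells are at the top and NK-like and T-like cells at the bottom, and the aerocyte endothelial-like point of BPTES replicate 2, at 39.8%, stands apart from the other 3 libraries of that class.

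Both sorted compartments showed the pattern. In clusters positive for Ptprc, Hspa1a was at 11.9 and 19.2 CPM against 5.69 and 7.502, Hspa1b at 9.49 and 18.0 against 3.31 and 4.61 and Hsph1 at 39.2 and 89.1 against 15.2 and 22.7. In the negative clusters Hspa1a was at 51.5 and 96.7 against 47.4 and 52.0 CPM, so that BPTES replicate 1 fell between the controls. On the TMM scale BPTES lay above DMSO without overlap for 9 members in the positive and 10 in the negative clusters, beside 27.8% and 26.4% of genes. On the plain CPM scale Hspa1a, Hspa1b and Hspb1 overlapped in the negative clusters. No member was called in either (edgeR adjusted p from 0.110 to 0.322 and from 0.225 to 0.334, none of all genes called). At an unadjusted p under 0.05, 7 and 6 members were higher, beside 11.5% and 9.21% of genes. The log2 fold change of Hspa1a was 1.27 in the positive and 0.65 in the negative clusters. The test of that difference, negative minus positive, gave -0.67 (SE 0.16, limma unadjusted p = 0.0160, adjusted p = 0.266), and for Hsph1 -0.45 (SE 0.08, unadjusted p = 0.00447, adjusted p = 0.264), and no gene was called. At an unadjusted p under 0.05, these 2 of the 10 members had a lower fold change in the negative clusters, beside 8.52% of all genes.

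The related gene lists did not all follow the 10 genes. Among 35 other cytosolic chaperones and heat shock genes, 29 had a log2 fold change above 0 over the whole library, with a median of 0.15, and none was called. The genes named here from the lists without a call, Stip1, Cacybp, Bag3, Hsf1 and Hspa5, were chosen after their values were seen. Stip1, which joins Hsp70 to Hsp90, was at 41.8 and 64.7 against 31.3 and 36.4 CPM, and Cacybp at 59.0 and 86.6 against 42.1 and 46.7 CPM. Bag3, a co-chaperone and known HSF1 target, overlapped between groups, at 124 and 145 against 147 and 129 CPM, and Hsf1 itself was at 27.3 and 25.4 against 26.9 and 29.2 CPM. All 18 genes of the endoplasmic reticulum list were above 0 (median 0.27, none called). Its chaperone Hspa5 was at 738 and 1156 against 601 and 667 CPM. All 7 measured subunits of the TRiC chaperonin, which folds actin and tubulin, were above 0 (median 0.18, none called). Of 10 genes of mitochondrial protein quality, 5 were above 0 (median 0.00), although Hspd1 and Hspe1 act in the same compartment. Over all classes the share of pairs above 0 was 70.3% for the cytosolic, 83.7% for the TRiC, 82.8% for the endoplasmic reticulum and 47.6% for the mitochondrial list.

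Over the whole library, immediate early genes were mostly lower with BPTES. Of 22, 17 had a log2 fold change below 0 over the whole library (median -0.11). On TMM-scaled CPM, 10 lay below DMSO without overlap and 2 above it, beside 28.5% and 26.7% of genes. None of the 22 was called. Their summed level was 14351 and 12764 CPM with BPTES and 15990 and 14767 CPM with DMSO, lowest in BPTES replicate 2, where the chaperones were highest. Egr1 was at 1144 and 1009 against 1639 and 1263 CPM, and Btg2 at 898 and 774 against 1224 and 1070 CPM (chosen after their values were seen). Over the classes 31.5% of pairs were above 0. Of 457 pairs 3 were called, all lower (edgeR), beside 0.109% of all pairs of gene and class called in either direction. Socs3 fell in AT2-like cells (log2 fold change -1.02, edgeR adjusted p = 0.0148), Ier3 in lymphatic endothelial-like cells (-0.71, adjusted p = 0.0260) and Egr1 in neutrophil-like cells (-1.13, adjusted p = 0.00860). With doublets kept none of the 3 passed (edgeR adjusted p = 0.142, 0.625 and 0.174), and with clusters named by score alone Egr1 did not (adjusted p = 0.144). Under all other alternatives each stayed under 0.05, at most 0.0151 for Socs3, 0.0285 for Ier3 and 0.00860 for Egr1. The 6 neutrophil markers summed to 81204 and 83467 CPM with BPTES and to 108392 and 114553 CPM with DMSO in neutrophil-like cells, and the part of this in the result was not tested. In 3 classes the median was above 0: in classical monocyte-like cells 20 of the 22 were above 0 (median 0.32), 18 of them without overlap beside 23.6% of genes in that class, and 14 at an unadjusted p under 0.05 beside 8.26%, with none called (edgeR). In non-classical monocyte-like cells 16 of 22 were above 0 (median 0.12) and in B-like cells 15 of 22 (median 0.06), and none was called. In CD45+ clusters the median of the 22 was 0.07 and in CD45- clusters -0.19. Over the whole library the medians of chaperones and immediate early genes thus lay on opposite sides of 0, and the part of digestion in either was not tested.

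Set against the DMSO mean of each class, the median of the 10 chaperones was above 0 in 21 of 21 classes in both BPTES libraries, with medians over classes of 0.26 (replicate 1) and 0.78 (replicate 2) on the log2(CPM + 1) scale. DMSO replicate 2 was itself above 0 in 18 of 21 classes, with a median of 0.04. BPTES replicate 1 was above both controls in 18 classes, the exceptions being dendritic-like, pericyte-like and peribronchial fibroblast and myofibroblast-like cells, and BPTES replicate 2 in 21. The median of the other cytosolic chaperones was also above 0 in 21 classes in both BPTES libraries, with smaller medians over classes (0.08 and 0.18). That of the endoplasmic reticulum list was above 0 in 21 and 20 classes (0.07 and 0.19). For TRiC the counts were 16 and 19, and for the mitochondrial list 12 and 6. For the immediate early genes the median was above 0 in 5 and 2 of 21 classes, with medians of -0.08 and -0.20, and below both controls in 13 and 17 classes.

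**Figure D5:**
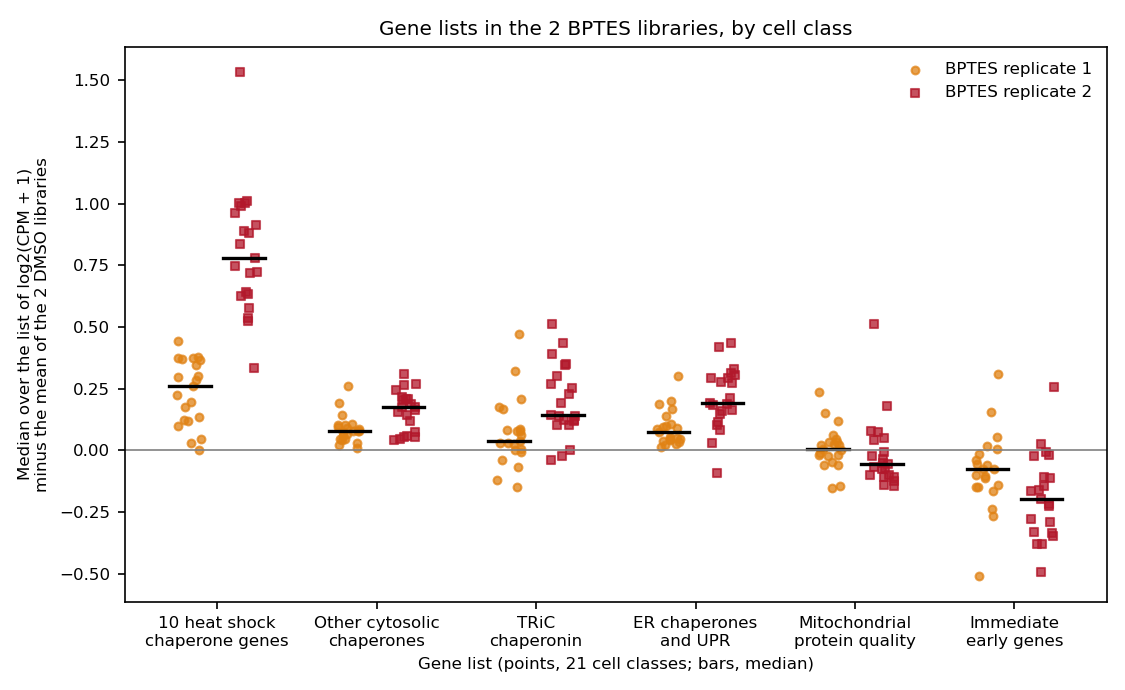
Median over each gene list of log2(CPM + 1) minus the mean of the 2 DMSO libraries, in the 2 BPTES libraries (points, 21 cell classes; bars, median over classes). The heat shock chaperones have medians of 0.26 and 0.78 and the immediate early genes of -0.08 and -0.20.

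Cells compared within a library gave another picture. In thinned cells, 47 pairs of class and library had at least 20 cells with an Hspa1a or Hspa1b UMI. Cells with such a UMI had more immediate early UMIs than cells without one in 46 of 47 pairs (median 58.2 against 43.3 per cell), and more often an Hspa8 UMI in 42 of 47 (82.6% against 76.6%). An Hsph1 UMI was more frequent in 36 of 47 (9.09% against 5.81%), and the other members in 28 (Hspe1) to 40 (Dnaja1) of 47. Hspd1 was near no difference, with 33 of 47 (21.1% against 20.7%). The mitochondrial share was higher in 8 of 47. Cells of 1 library share their preparation and are not replicates, so these counts carry no test.

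Genes other than the members were ranked by their likeness to the summed Hspa1a and Hspa1b level over 84 sums of class and library, 10267 genes being compared. Over all sums the first 10 were Phldb1 (Pearson r = 0.83), Lix1l (0.80), Ecm1, Tcp11l1, Gamt, Ctdsp2, Ikbip, Itpripl2, Soga1 and Nfic (0.78). With the mean of each class taken out, so that only differences among libraries were left, the first 10 were Lars2 (0.79), Ahsa2, Camk1d, Stip1, Chordc1, P4ha1, Gm42418, Cacybp, Hsp90ab1 and Gm19951 (0.73). The members left out of the ranking included 3 with a higher r than any of these, Hsp90aa1 (0.83), Hspa8 (0.81) and Dnaja1 (0.81). Of the latter 10, 4 genes, Stip1, Chordc1, Cacybp and Hsp90ab1, are on the list of cytosolic chaperones. Gm42418, whose locus overlaps ribosomal RNA sequence, was at 45897 and 54877 CPM with BPTES and 42438 and 42517 CPM with DMSO, and Lars2 at 740 and 870 against 708 and 742 CPM. The sums share libraries, depth and class, and the part of the ribosomal RNA signal in the chaperone levels was not tested.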

How the data were processed

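The authors deposited filtered UMI count matrices, 1 per library, made with Cell Ranger 8.0.1 on mm10, per the submitters' processing notes; the annotation release is not given in the sources used here. Libraries used the GEM-X 3′ chemistry, per the labels' protocols. Features were matched to GENCODE M21 by identifier (30934 of 31054).

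Barcodes with at least 500 genes, 1000 UMIs and at most 10% mitochondrial UMIs were kept. Doublets were scored against simulated pairs, and the highest scores removed, 0.4% per 1000 cells. Cells were clustered from 2000 variable genes, without the members and listed genes, with 40 principal components, 15 neighbours and Leiden (igraph 0.11.9, resolution 1). Clusters were named from fixed markers (mean z-score of at least 1.5, at least 3 markers in 10% of cells). Clusters that passed stayed unnamed where a different class had more markers than their own among their 10 leading genes, or where their depth was far below that of their libraries and none of their markers was among those 10.

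UMI counts were summed per library and class and tested with edgeR 4.0.16 (TMM, filterByExpr, quasi-likelihood, Benjamini-Hochberg within each fit, called under 0.05); the difference between compartments used limma 3.58.1. Levels are plain CPM of the sums. On simulated counts of 200 genes changed 2-fold, 53.5% were recovered over the whole library and 69.5% in alveolar fibroblast-like cells; 11.6% and 13.1% of the calls were false. For the difference, 89.5% of 200 genes changed 4-fold were recovered. There both compartments were drawn from whole-library means with a fixed spread that was not taken from the data. That share therefore does not measure the sensitivity of the test on the real compartments. An exact permutation test of 2 libraries against 2 cannot give a p below 0.333, so none was run on single values. Alternatives were DESeq2 1.42.0, RLE factors, no filter, other filters on cells, other partitions and leaving out each library. Python 3.11.15 and R 4.3.3 were used.

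The members and gene lists were chosen with earlier results of these data known, so nothing here is independent support for them. Named genes are the 10 members, called genes of the other lists (up to 3 per direction and comparison) and the 10 genes most like Hspa1a and Hspa1b by each measure; others are marked as chosen later.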

Additional observations from a re-analysis of the deposited data

Results flagged for a closer look

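In peribronchial fibroblast and myofibroblast-like cells both BPTES libraries lay below both DMSO libraries for Hspa1a (log2 fold change -0.32), which lay above them in 11 other classes, and for Dnajb1 (-0.14), which lay above them in 10. These opposite directions were not tested, and for Hspa1a the groups overlapped after TMM scaling. Of all pairs of gene and class, 21.5% lay above DMSO and 21.7% below it without overlap, counted after TMM scaling.

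Barcodes that failed the filters on cells (1596 and 1258 with BPTES, 1091 and 1437 with DMSO) enter no comparison of the report except the alternative that sums all barcodes of a library. In their summed UMIs 5 of the 10 genes had both BPTES libraries above both DMSO libraries, beside 10.7% of the 11522 genes with at least 10 UMIs in at least 2 libraries: Hspa1a at 1.89 times the DMSO mean, Hspa8 at 1.43, Dnaja1 at 1.31, Hsph1 at 2.52 and Hspd1 at 1.22. Hsph1 was at 34.5 and 72.8 CPM there against 14.5 and 28.0 CPM, from 21 to 140 UMIs per library. Dnajb1 was at 38.6 and 55.6 against 52.3 and 68.2 CPM and overlapped. Between 36.5% and 48.5% of these barcodes failed on their mitochondrial share.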

How the results depend on the processing

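Over the whole library the 10 log2 fold changes stayed above 0 in all 120 refits under 12 settings, from 0.13 to 1.95, and the number of called members was 0 in each except DESeq2, which gave 3. Leaving out each library gave 0 in every case. For the compartments and their difference it was 0 under each alternative run. In the cell classes, 1 pair was called with all libraries. This became 124 with no filter on low counts, 29 with DESeq2, 44 with the replicate block, 2 with at most 5% mitochondrial UMIs, 0 with doublets kept, 3 at resolution 2, 2 with clustering seed 2, 2 with the listed genes among the variable genes, and 11 to 105 when 1 library was left out. The share of all pairs of gene and class that was called rose as well, from 0.109% to 2.84% with no filter, 1.17% with DESeq2, 1.12% with the replicate block and 0.350% to 2.14% with 1 library left out, where 1 group is a single library assumed to vary like the other. In the other gene lists, 3 pairs became 263 with no filter, 77 with DESeq2, 85 with the replicate block, 8 with at most 5% mitochondrial UMIs, 16 with doublets kept, 14 at resolution 2, 7 with the listed genes among the variable genes, and 17 to 197 when 1 library was left out. Of all pairs of gene and class, 0.148% were called with at most 5% mitochondrial UMIs and 0.176% with doublets kept. The share was 0.186% at resolution 2, 0.135% with clustering seed 2 and 0.112% with the listed genes among the variable genes. The replicate numbers are numbers only: the deviations of same-numbered libraries had a correlation of -0.13 over 21398 genes. Crossing the numbers, an alternative chosen after seeing the data, gave 35 called pairs for the members and 59 for the other lists. It called 0.895% of all pairs of gene and class. The fold change of Hsp90aa1 in ciliated-like cells reversed, to -0.0062, without DMSO replicate 1, and was 0.58 without DMSO replicate 2. The cause of these shifts was not tested. Levels are limited by few UMIs in some classes: Hspa1a had 2 UMIs in ciliated-like cells of DMSO replicate 1.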

Other observations

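Of the 9 unnamed clusters, 8 had at least 50 cells in every library. BPTES lay above DMSO without overlap in 8 of them for Hsph1, in 7 for Dnaja1, in 6 each for Dnajb1, Hsp90aa1 and Hspd1, in 5 for Hspa8, in 4 for Hspe1, in 3 each for Hspa1a and Hspa1b and in 1 for Hspb1. Of the pairs of member and cluster with at least 10 UMIs in at least 2 libraries, 48 of 78 were higher and 2 lower without overlap, beside 17.6% and 23.4% of all 84358 pairs of gene and cluster. The exception for Dnaja1 was a cluster of 711 cells, shallow at 0.232 times the median depth of its libraries. Unnamed clusters at 0.179, 0.221 and 0.222 times had Dnaja1 higher without overlap, and the part of depth was not tested. In the cluster of 711 cells Hspa8 lay below DMSO, at 84.1 and 83.5 against 109.0 and 110.8 CPM. These levels rest on few UMIs, 48 and 56 with BPTES and 100 and 102 with DMSO. Hsp90aa1 did so too, at 178.7 and 173.0 against 182.0 and 225.8 CPM. A cluster of 7915 cells was led by the arterial genes Sema3g, Efnb2 and Sox17. Its marker score was nevertheless highest for general capillary endothelium (2.29), with arterial endothelium second (1.27). It stayed unnamed and is not part of the general capillary endothelial-like class. Its Hsph1 was at 19.97 and 47.6 against 11.2 and 12.99 CPM. A cluster led by Il23r, Cd163l1 and Trdc, genes of gamma-delta T cells that make interleukin 17, had Dnaja1 at 493 and 790 against 409 and 422 CPM and Hsph1 at 61.9 and 135.3 against 21.5 and 22.5 CPM.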
